A study of Arabidopsis thaliana with 2 samples.

Results

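Pentatricopeptide repeat (PPR) genes encode RNA-binding proteins of mitochondria and plastids, and 60 of them, chosen by locus, were followed here in Arabidopsis thaliana leaf cells under low oxygen. A single-gene probe set was present for 42 of the 60, out of 13355 genes with such a probe set on the array. Each of the 42 had 1 probe set, so no choice between probe sets arose. The list is not the whole family: 53 of the 60 lie on chromosome 1. It was chosen with earlier results of these data known. The cells were mesophyll protoplasts, which are photosynthetic leaf cells freed from their walls, pooled from a pair of leaves on each of 36 plants and split into 2 samples. The control sample was kept for 6 h in a shallow dish, in mannitol buffer of 10 ml and 0.6 mm deep. The hypoxia sample was kept as long in a tube, where 2 ml of buffer covered the cells to 25 mm. Cell number and light, at 80 microeinstein, were equal. The labels give no strain, mutation or transgene for either sample, and vessel, cell density and oxygen supply differed together, so they cannot be told apart.

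PPR proteins are encoded in the nucleus, made in the cytosol and imported into the organelles. Each repeat is a pair of helices, and a row of repeats binds a particular stretch of single-stranded RNA. Proteins of the P class mostly stabilise, cleave, splice or help translate organelle transcripts. Proteins of the PLS class, which carry extra domains at the end of the repeats, mostly direct the editing of single cytidines to uridines. Because mitochondrial respiratory chain and plastid photosynthesis transcripts need them, loss of a single PPR gene often disturbs an organelle's energy metabolism.

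The measured quantity was probe set intensity on a linear scale, on 1 array per group. Median intensity was 345.2 in control and 334.2 in hypoxia. Ratios are log2 of hypoxia over control after both arrays were scaled to the same median. Values under a floor of 165.7 on the scaled values, which is the 40th percentile of all of them, were set to that floor. On the deposited values, which are printed below, this floor is 168.4 in control and 163 in hypoxia. A gene counted as measured when it exceeded the floor on at least 1 array. Where only the other array exceeded the floor, the ratio gives the least size that the difference can have, and "at least" marks it. With 1 array per group there is no spread between replicates and no test, so every difference below is a description of these 2 arrays. A measure of technical error was the spread between probe sets of the same gene, an SD of 0.34 on the log2 scale over 74 genes. It covers probe differences within these arrays, and neither biological variation nor an offset between whole arrays. All 18 hybridisation controls were higher on the hypoxia array as deposited. After scaling their median log2 ratio was 0.50, more than this SD. Of the mesophyll markers, the Rubisco activase gene RCA had a single-gene probe set, at 35119 in control and 57111 in hypoxia. The guard cell gene FMA (also FAMA) was at 294.8 and 327.8, the guard cell gene AT1G22690 at 32.9 and 175.4, and the phloem gene SWEET11 at 212.4 and 1020.2; their part in the results on PPR genes was not tested. In RNA from a whole sample, fewer cells of a type and less RNA per cell cannot be told apart.

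The measured PPR genes of this list were mostly lower in hypoxia. Of the 42 with a probe set, 15 were at least 2-fold lower, 2 were at least 2-fold higher, 16 had a ratio or bound under 2-fold, and 9 lay under the floor on both arrays. Of the 16, 6 were above the floor on both arrays and 10 were bounds, whose true difference can be larger. Among all 7972 measured genes, 14.5% were at least 2-fold lower and 13.0% at least 2-fold higher. The 15 and 2 make 45.5% and 6.06% of the 33 PPR genes that were measured, but 14 of these 33 passed the floor on a single array, and a gene that passes through 1 array alone must differ in that direction. Where both arrays exceeded the floor, which leaves 19 PPR genes, 11 were at least 2-fold lower and 2 at least 2-fold higher, against 15.7% and 12.7% of the 6648 genes so measured. Of the 31 above the floor in control, 15 were at least 2-fold lower and 2 higher, against 16.4% and 12.0% of all such genes. But 12 of the 31 passed in control alone, which sets their direction, as did 387 of the 7035 such genes overall. That comparison is therefore tilted towards lower PPR genes. Over the 19 above the floor on both arrays the median log2 ratio was -1.07, beside -0.17 for the 6648 genes. Over the 33 measured PPR genes the median was -0.77, or 1.70-fold lower, and over all measured genes it was -0.07.

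**Figure D1:**
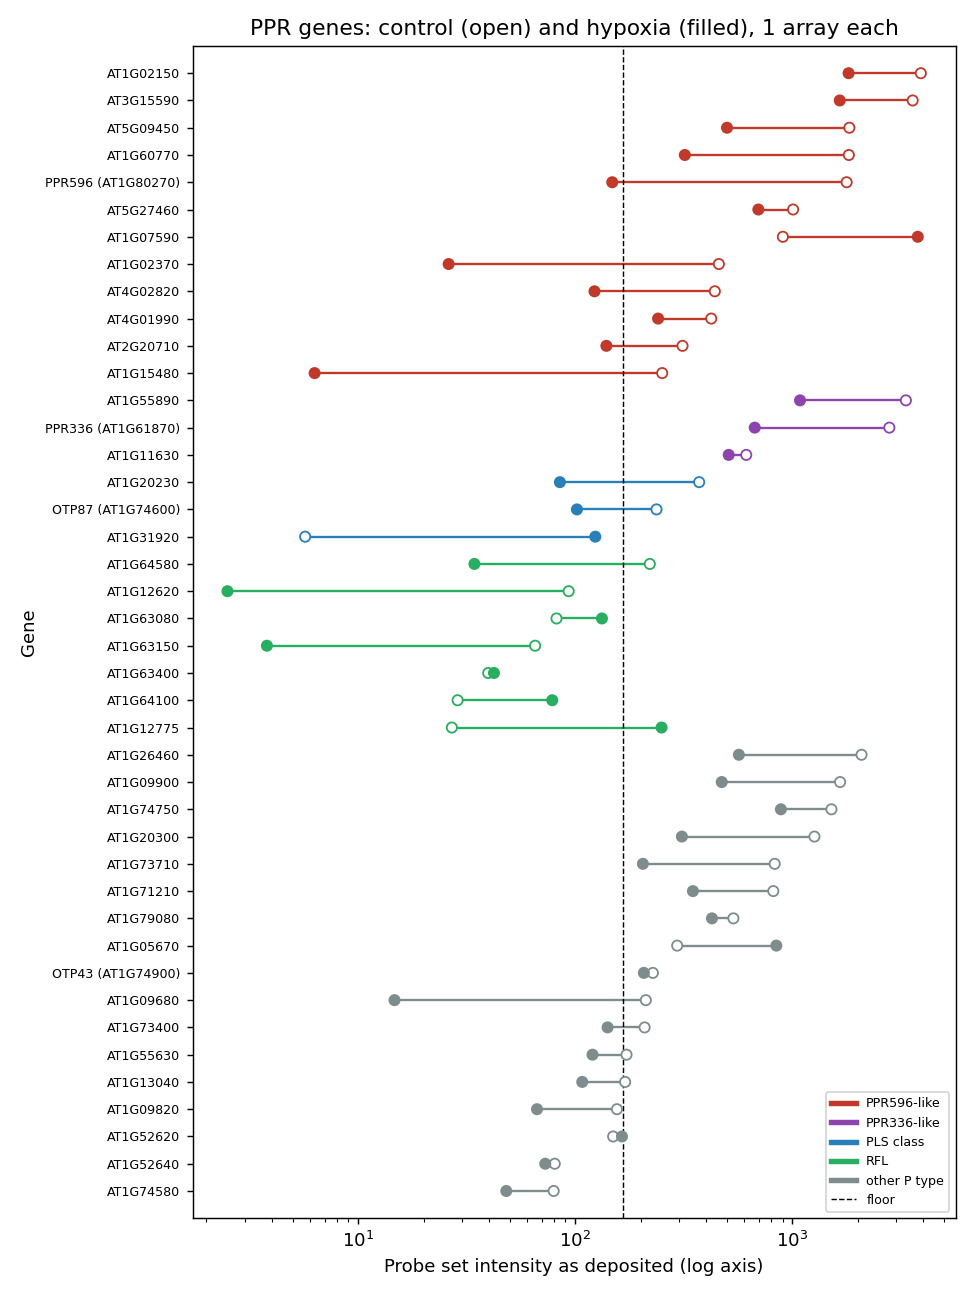
Probe set intensity as deposited (log axis) of the 42 PPR genes with a single-gene probe set, in control (open circles) and hypoxia (filled circles), 1 array each, coloured by group. The dashed line is the floor of the scaled values, 165.7. On the deposited values the floor is 168.4 in control and 163 in hypoxia. AT1G52620, at 164 in hypoxia, was therefore above the floor though left of the line. For most genes the filled circle lies left of the open one, and 12 genes cross from above the floor in control to below it in hypoxia.

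Of the 14 PPR genes that passed the floor on a single array, 12 passed in control and 2 in hypoxia, and among all measured genes 387 passed in control alone and 937 in hypoxia alone. The direction of these genes was set by the filter, so they are left out of the following counts. Of the 19 PPR genes above the floor on both arrays, 17 had a ratio below 0 (89.5%), as did 57.6% of all genes so measured. At a threshold of 3-fold, 7 of the 19 were lower, against 4.72% of all such genes, and 1 was higher, against 5.13%. At 4-fold, 2 were lower, against 1.93%, and 1 was higher, against 2.72%.

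**Figure D2:**
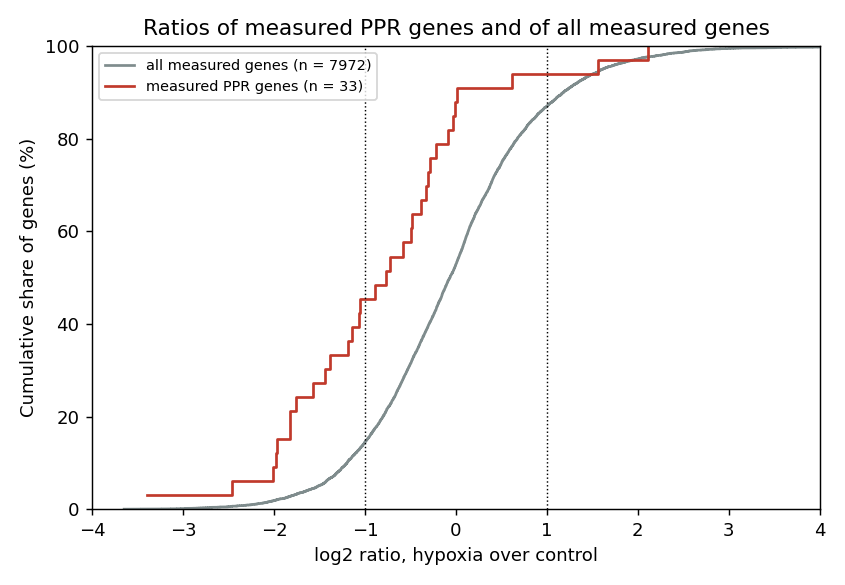
Cumulative share of genes (%) by log2 ratio of hypoxia over control, for the 33 measured PPR genes and all 7972 measured genes, with dotted lines at 2-fold; ratios at the floor enter as bounds (14 of the 33, with directions set by the filter), and the x axis ends at 4, beyond which some genes of the whole array lie. The PPR curve lies above that of all genes over most of the range, with medians of -0.77 and -0.07.

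The PPR596-like genes are P-class genes named here after PPR596, whose product is a mitochondrial protein that affects the partial editing of the ribosomal protein transcript rps3. The grouping of PPR genes rests on background knowledge of the family and was not checked on sequences. Of 14 listed genes, 12 had a probe set and all 12 were measured: 7 were at least 2-fold lower, 1 was at least 2-fold higher and 4 had a ratio or bound under 2-fold. The shares over all measured genes were 14.5% lower and 13.0% higher, and 5 of the 12 passed the floor in control alone, which sets their direction. The median log2 ratio was -1.06 over the 12, and -1.06 over the 7 above the floor on both arrays. PPR596 itself (AT1G80270) gave 1776.1 in control and 147.9 in hypoxia. It was well above the floor in control and under it in hypoxia, at least 10.5-fold lower, a log2 ratio of -3.40 or below. This bound moved with the floor, and a floor at the 60th percentile gave -1.37. AT1G80280, the next gene in the gene table, overlaps PPR596 and went the other way, with a log2 ratio of 1.50. PPR596 had already been picked out among the lowest bounds of the array in earlier work on these data, so its low value is no independent finding.

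Among its relatives above the floor on both arrays, AT1G60770 went from 1817.7 in control to 319.3 in hypoxia, 5.51-fold lower. AT5G09450 went from 1827.9 to 499.5, 3.54-fold lower. Both stayed past 2-fold lower under the 11 alternatives run on them. Among the 11, averaged or suffix-free probe sets and counting both-array genes alone could not change these values. AT3G15590 was at 3576.7 and 1650.9, and AT1G02150 at 3900.1 and 1813. The log2 ratios of these last genes, -1.07 and -1.06, lay just past 2-fold, and both came within 2-fold with loess and with reference gene centring. AT4G01990, at 422.6 and 240.5, had a log2 ratio of -0.77, and AT5G27460, at 1006.7 and 696.4, had -0.48. These were smaller differences, and that of AT5G27460 changed sign to 0.12 with reference gene centring.

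A further 4 PPR596-like genes dropped under the floor in hypoxia from control values nearer to it. AT1G02370 went from 458.2 to 26.1, at least 2.72-fold lower. AT4G02820 went from 438.9 to 122.5, at least 2.61-fold lower, a call that reference gene centring ended. AT2G20710, at 311.6 and 139, was at least 1.85-fold lower, and AT1G15480, at 251.2 and 6.3, at least 1.49-fold lower. With the floor at the 20th percentile these bounds were -1.12 and -2.42 on the log2 scale, past 2-fold. The deposited hypoxia values of AT1G02370 and AT1G15480 were the lowest of the group, but values under the floor have no order. AT1G28020 and AT4G21705 had no single-gene probe set in the annotation used and were not analysed here.

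The exception in this group was AT1G07590, which was at 903.1 in control and 3775.7 in hypoxia, 4.32-fold higher. Its log2 ratio was 2.11, the highest of the 19 PPR genes above the floor on both arrays. In the gene table AT1G07590 overlaps MT1A (AT1G07600), a metallothionein gene that is no PPR gene and was not analysed here. The gene table used gives no strand, and which of the overlapping transcripts the probes bind was not tested.

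**Figure D3:**
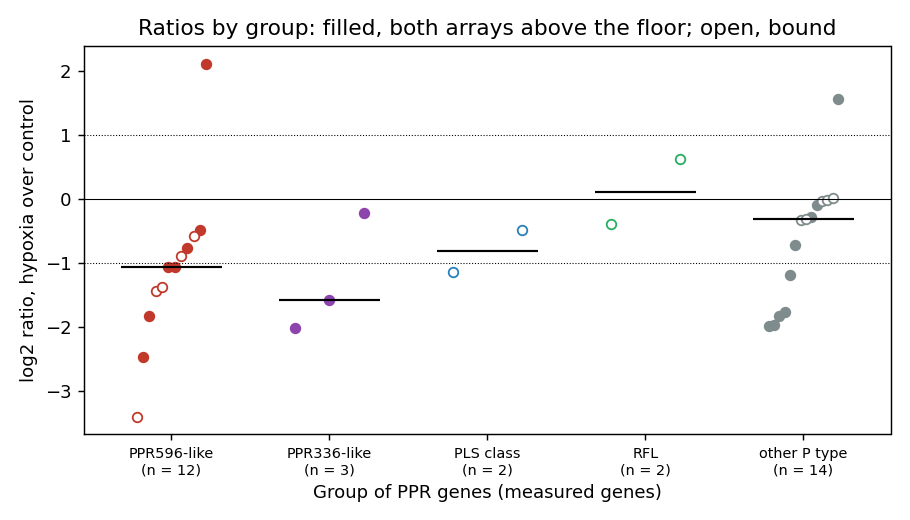
Log2 ratios of hypoxia over control for each measured PPR gene in 5 groups: filled circles, both arrays above the floor; open circles, bounds with 1 array at the floor; black bars, group medians; dotted lines, 2-fold. The PPR596-like and PPR336-like medians are -1.06 and -1.57, and the 2 PPR genes above 2-fold, AT1G07590 and AT1G05670, stand apart from the rest of their groups.

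PPR336 and its relatives were all above the floor on both arrays. PPR336 (AT1G61870) encodes a small P-class protein found with mitochondrial polysomes, where organelle messages are translated. Its intensity was 2793.4 in control and 670.3 in hypoxia, 4.03-fold lower. Its relative AT1G55890 was at 3329.1 and 1083.4, 2.97-fold lower, and came just within 2-fold, at -0.97, with reference gene centring. AT1G11630 was at 612.5 and 508.5, a log2 ratio of -0.22, which is within the probe set SD of 0 and turned to 0.39 with reference gene centring. So 2 of 3 genes in this small group were past 2-fold, both lower, and the third was not. Over all genes above the floor on both arrays, 15.7% were at least 2-fold lower and 12.7% higher. AT1G61890, the next protein-coding gene after PPR336 in the gene table, had a log2 ratio of 1.06, and AT1G55880, which overlaps AT1G55890, had -1.94.

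Of the 4 PLS-class genes, 2 were measured, both through the control array alone. AT1G20230 was at 371.8 in control and 84.9 in hypoxia, at least 2.21-fold lower, a call that reference gene centring ended. OTP87 (AT1G74600), which is needed for editing of the mitochondrial transcripts nad7 and atp1, was at 236.5 and 101.7, at least 1.40-fold lower, a bound that went to -1.17 on the log2 scale with a floor at the 20th percentile. Both genes were above the floor in control only, and their hypoxia values say no more than that they lay under it. AT1G31920, at 5.7 and 123.6, was under the floor on both arrays, and AT1G19720 had no single-gene probe set.

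Relatives of the restorers of fertility (RFL genes) are P-class genes that lie in clusters and are close in sequence. Restorer proteins cleave or block aberrant mitochondrial transcripts, and the RFL members RPF1, RPF2 and RPF3 are known to help form the 5′ ends of mitochondrial transcripts. Most RFL genes gave no value here. Of 16 listed, 9 had no single-gene probe set, RPF1, RPF2, RPF3 and NG1 among them, and 5 were under the floor on both arrays. Those 5 were AT1G12620, at 93.2 and 2.5, AT1G63080, at 81.9 and 132.6, AT1G63150, at 65.3 and 3.8, AT1G63400, at 39.7 and 42.2, and AT1G64100, at 28.7 and 78.3. AT1G63330 was paired only with a probe set shared with AT1G62590, which was at 133.1 and 100.6 and also under the floor. The other RFL genes without a single-gene probe set were AT1G06580, AT1G12300, AT1G62910 and AT1G63130.

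The 2 RFL genes measured lay on opposite sides of 0. AT1G64580 was at 220.3 in control and 34.3 in hypoxia, at least 1.31-fold lower. AT1G12775 was at 27 and 249.5, at least 1.53-fold higher. AT1G12775 overlaps UGE1, a UDP-glucose epimerase gene that was not analysed here, and which transcript its probes bind was not tested. Both ratios were bounds that moved with the floor: with the floor at the 20th percentile they were -2.23 for AT1G64580 and 2.45 for AT1G12775, both past 2-fold.

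The other P-type genes held 23 listed members, and 17 had a probe set. Measured were 14, and 5 of them were at least 2-fold lower, 1 was at least 2-fold higher and 8 had a ratio or bound under 2-fold. The shares over all measured genes were 14.5% lower and 13.0% higher. The median log2 ratio was -0.32 over the 14, of which 4 passed the floor in control alone and 1 in hypoxia alone. Over the 9 above the floor on both arrays the median was -1.18. All 5 lower genes were above the floor on both arrays. AT1G20300 went from 1262.4 to 309.6, 3.95-fold lower. AT1G73710 went from 828.2 to 204.7, 3.92-fold lower. AT1G26460 went from 2080.2 to 566.4, 3.56-fold lower.

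The remaining lower genes of this group were AT1G09900, which went from 1657.2 to 472.4, 3.40-fold lower, and AT1G71210, which went from 816.1 to 347.9, 2.27-fold lower. AT1G20300, AT1G73710 and AT1G71210 were within 2-fold when the 60th percentile served as floor, at log2 ratios of -0.88, -0.27 and -0.25, because that floor lies above their hypoxia values. AT1G71210 also came within 2-fold with loess, at -0.98, and with reference gene centring, at -0.58. AT1G26460 and AT1G09900 were at least 2-fold lower under all 11 alternatives run on them. Among the 11, averaged or suffix-free probe sets and counting both-array genes alone could not change these values.

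AT1G05670 was the higher gene, at 294.5 in control and 842.6 in hypoxia, 2.96-fold higher. With the floor at the 60th percentile its log2 ratio was 0.34. Its neighbour in the gene table, AT1G05675, which is no PPR gene, had no value here, and whether the probes of AT1G05670 bind transcripts of that neighbour was not tested. Of the 33 measured PPR genes, 12 overlap another protein-coding gene in the table, among them AT1G07590 and 3 of the 15 lower ones.

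A ratio or bound under 2-fold was found for 8 other P-type genes. OTP43 (AT1G74900), which is needed for trans-splicing of an intron of the mitochondrial transcript nad1, read 227.6 in control and 206.8 under hypoxia, with a log2 ratio of -0.09. AT1G74750 was at 1511.7 and 884.3, a log2 ratio of -0.73, and AT1G79080 at 534.4 and 425.8, a log2 ratio of -0.28. OTP43 and AT1G79080 lay within the probe set SD of 0, and both turned above 0 with reference gene centring, to 0.52 and 0.33. The remaining 5 were bounds close to the floor: AT1G09680 was at 211.2 and 14.7, AT1G73400 at 208.5 and 140.8, AT1G55630 at 172.1 and 120, AT1G13040 at 169.6 and 107.6, and AT1G52620 at 149.3 and 164. The first 4 of these were above the floor in control only and AT1G52620 in hypoxia only, with a log2 ratio of at least 0.01. With a floor at the 20th percentile AT1G09680 had a bound of -2.16, past 2-fold, and the other 4 stayed under 2-fold.

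Under the floor on both arrays were AT1G09820, at 155.5 and 66.6, AT1G52640, at 80.4 and 72.7, and AT1G74580, at 79.5 and 48.1. Without a single-gene probe set were PTAC2 (AT1G74850), whose product belongs to the plastid's transcribing chromosome and is needed for the plastid-encoded RNA polymerase, EMB2279, EMB2217, APPR6, AT1G53330 and AT1G80150. Of the 60 listed genes, 18 were in this position and were not analysed here.

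**Figure D4:**
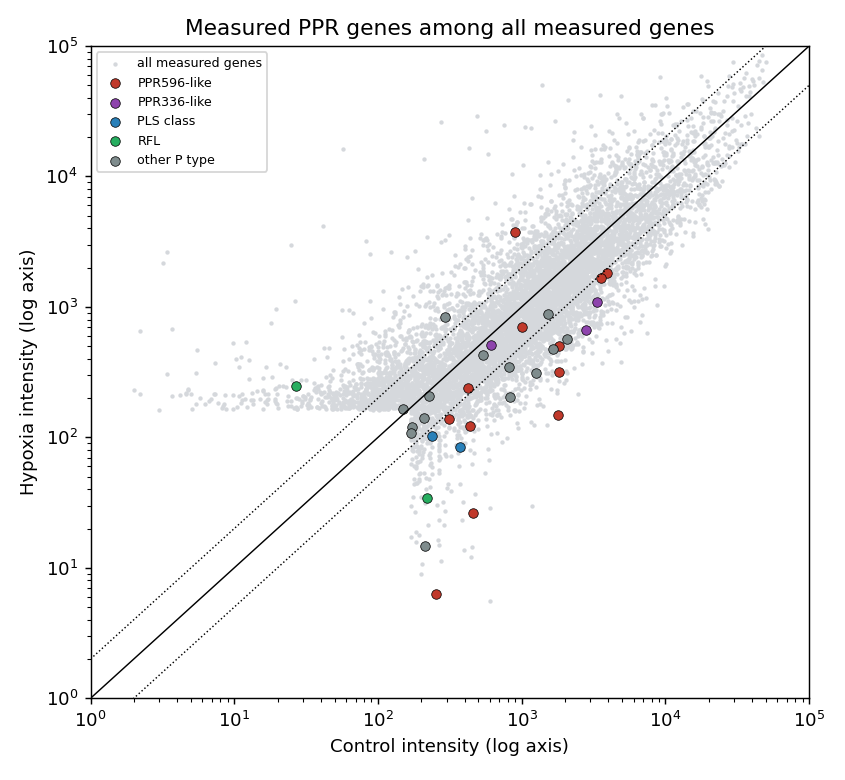
Hypoxia intensity against control intensity as deposited (log axes) for all 7972 measured genes (grey) and the 33 measured PPR genes (coloured by group), with the line of equality (solid) and lines at 2-fold (dotted). Most PPR genes lie under the line of equality; AT1G07590, at 903.1 and 3775.7, AT1G05670, at 294.5 and 842.6, and AT1G12775, at 27 and 249.5 with its control value under the floor, lie above the upper dotted line.

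Genes next to PPR genes on the chromosome had a median nearer to that of all genes. The nearest gene on each side of a measured PPR gene, PPR genes of the list aside, had a ratio in 22 cases, of which 4 were at least 2-fold lower and 2 at least 2-fold higher, beside 14.5% and 13.0% of all measured genes. Their median log2 ratio was -0.26. AT1G20310, beside AT1G20300, had a log2 ratio of -1.99, nearly that of AT1G20300 at -1.98. By contrast both measured neighbours of OTP43 were above 0, at 0.70 and 0.90. The difference between PPR genes and their neighbours was not tested.

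Few other nuclear genes that act on organelle RNA had a single-gene probe set in the annotation used. The 1 measured MORF gene, AT1G32580 of the family of accessory editing factors that bind PLS-class proteins, went from 2886.8 to 770, 3.63-fold lower. The phage-type RNA polymerase gene AT5G15700, whose product transcribes organelle genes, went from 1016.4 to 274, 3.59-fold lower. Of 5 measured intron splicing genes, 1 was at least 2-fold lower, the maturase gene AT5G46920, at 1496.3 and 456.4, and 0 were at least 2-fold higher. Over all measured genes these shares were 14.5% and 13.0%.

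The other splicing genes were CAF1 at a log2 ratio of -0.84, CFM3A at -0.75, and the maturase genes AT1G74350 and AT5G04050 at 0.25 and 0.36, which turned to -0.26 and -0.14 with hybridisation control centring. The list of proteins bound to the plastid polymerase had no single-gene probe set. Nor did the 8 other PPR genes found by a name in the gene table. A further list of 45 PPR genes with a known symbol, drawn up after the values above were seen, had 5 measured members, mostly plastid editing factors. Of these OTP81 was at least 3.37-fold lower, at 568.1 and 138.3, CRR22 was at least 1.49-fold lower, and OTP84, OTP70 and LPA66 had log2 ratios of -0.10, 0.27 and 0.28, all of which changed sign with 1 of the centrings. The median of these 5 was -0.10, near that of all measured genes.

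Among mitochondrial transcripts on which PPR proteins act, 2 were at least 2-fold higher. Of 8 such transcripts, 4 had a probe set and 3 were measured. The 3 were above the floor on both arrays, where 12.7% of all genes were at least 2-fold higher. The transcript nad4 went from 775.9 to 1715.6, 2.28-fold higher, and nad9 from 557.7 to 1505.7, 2.79-fold higher, while nad1 went from 986.9 to 653.6, a log2 ratio of -0.55. With hybridisation control centring nad4 and nad9 came within 2-fold, at log2 ratios of 0.69 and 0.98, and nad1 was at -1.05; with reference gene centring nad1 was at 0.06. The transcript nad7, at 55 and 116.1, was under the floor on both arrays. How far transcript levels of organelle genes follow those of PPR genes was not tested.

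The median of PPR genes was below that of all genes under each of the 12 alternatives run. It ranged from -1.21 to -0.46 on the log2 scale, and its distance from the median of all genes counted in the same way ranged from -1.20 to -0.67. Averaged or suffix-free probe sets could not change the PPR median, since each PPR gene had a single probe set without a suffix. Centring both arrays on the 3 measured reference genes moved the median of all genes to 0.41, and centring them on the hybridisation controls moved it to -0.55. Absolute directions of modest size therefore depend on the scaling. With reference gene centring 9 of 30 measured PPR genes were at least 2-fold lower, against 4.31% of all genes, and 2 at least 2-fold higher, against 25.2%. With hybridisation control centring 18 of 34 were at least 2-fold lower, against 31.0%, and 2 at least 2-fold higher, against 6.67%. Of the 15 lower genes, 7 stayed past 2-fold under every alternative that gave them a value: PPR596, AT1G02370, AT1G60770, AT5G09450, AT1G09900, AT1G26460 and PPR336. In the values as reported, PPR596 and AT1G02370 passed the floor in control alone, which sets their direction. They had a value under 10 and 9 alternatives, and some alternatives could not change a gene's value. The share of all genes that stay past 2-fold in this way was not computed.

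**Figure D5:**
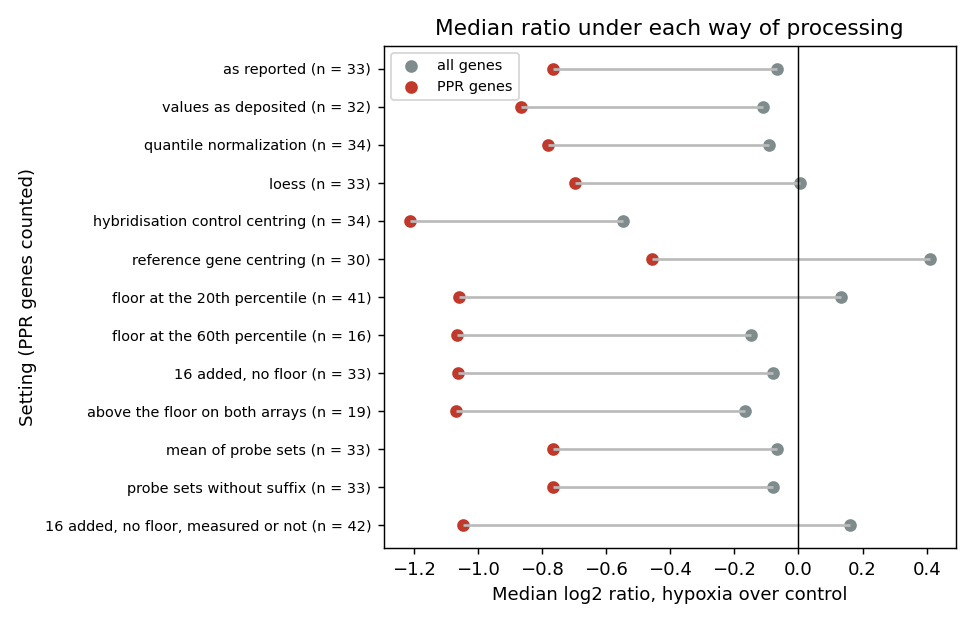
Median log2 ratio of hypoxia over control for PPR genes (red) and all genes (grey) as reported and under each of 12 alternatives, with the number of PPR genes counted in each. The red point lies left of the grey one in every line, with differences of -1.20 to -0.67 on the log2 scale, while both shift together under the centrings.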

How the data were processed

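The members and gene lists were chosen with earlier results of these data known. Deposited probe set intensities on a linear scale were used. For the authors' software, GCOS 1.0 is given per the submitters' processing notes; settings and genome build are not given in the sources used here. Trimmed by 2% at each end, the mean was 1498 in control and 1499 in hypoxia, so from the values the authors had scaled whole arrays. Of 22746 probe sets other than controls, an older platform annotation paired 13513 with 1 gene, 503 with several and 8730 with none; 13436 of the 13513 were matched to RefSeq names of TAIR10.1. No detection calls and no probe or gene sequences were used here. Arrays were brought to a common median (the geometric mean of both), floored at the 40th percentile of the pooled values, and log2 ratios taken (Python 3.11.15, pandas 2.3.3). The calculation was tested on simulated data. A gene's probe set was that with the highest mean log2 intensity. Named were the measured PPR596-like, PPR336-like and PLS-class genes, genes past 2-fold, genes of known function, the 5 with the highest mean intensity and those under the floor; the other measured members were added so that each is accounted for. The number of arrays limits the precision. Alternatives changed scaling, floor, genes counted and probe sets.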

Additional observations from a re-analysis of the deposited data

How the results depend on the processing

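No paired analysis was possible because each group had 1 array. Of 92 recomputed medians and counts, 74 stayed close to the values reported (within the probe set SD, or within 1.5 times for counts). The 74 include those from averaged and from suffix-free probe sets, which could not differ. With hybridisation control centring the median log2 ratio was -1.21 for all measured PPR genes, -1.57 for PPR596-like and -2.07 for PPR336-like genes. With reference gene centring it was -0.48 for PPR596-like, -0.97 for PPR336-like and -0.43 for PLS-class genes. Of 30 measured genes, 9 were then at least 2-fold lower, against 4.31% of all genes. Lowering the floor to the 20th percentile left 41 PPR genes measured. Past 2-fold were 21 lower ones (all genes: 12.5%) and 4 higher ones (all genes: 20.2%). The medians at this floor were -1.46 for PPR596-like, -0.68 for other P-type and -1.17 for PLS-class genes. At the 60th percentile 9 genes were at least 2-fold lower and 1 higher, out of 16 measured, against 13.1% and 12.1% of all genes. The other P-type median was then -0.73. Adding 16 instead of flooring, the PLS-class median was -1.48. Counting genes above the floor on both arrays alone, the other P-type median was -1.18. An alternative added after the data were seen (16 added, all 42 genes counted) gave 23 lower and 5 higher, against 11.7% and 21.6% of all genes. Fewer genes were counted at the higher floor; otherwise the cause of these shifts was not tested. Of single genes, AT1G52620 changed sign under 3 alternatives and AT5G27460, AT1G11630, AT1G73400, OTP43 and AT1G79080 with reference gene centring; 0 of these were past 2-fold. Mean or suffix-free probe sets changed no PPR gene's value, since each has 1 such probe set.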
